A study of Mus musculus with 96 samples.

Results

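Liver gene expression of CBA/J mice on a control diet was compared with that of 4 other inbred strains on the same diet. The 8 CBA/J control mice were taken by their titles from the 96 mice of the study and set against the mean of the control groups of 129S1/SvImJ, C57BL6/J, C3H/HeJ and DBA/2J, with 8 mice each, 32 in all, and with equal weight for each strain. The first-generation cross in the study was left out of the comparison. All mice were male, bought from the Jackson Laboratory, received at 6 weeks of age, housed singly and given 84 kcal per week of a purified diet of the AIN93M type for 2 weeks. From 8 weeks of age the control mice ate the control diet, and livers were taken at 22 weeks, after 14 weeks on it. The study also kept 8 mice of each strain on a diet with 25% fewer calories, and those 40 inbred mice served for a repeat of the contrast in other animals. They and the cross touched the control-diet contrast only in an alternative fit where all 96 arrays shared the estimate of spread. Each mouse had its own single-colour Affymetrix array, and the values are MAS5 signals, given here as log2 signal. An inbred strain is a single genotype, so the contrast is between CBA/J and the average of 4 particular strains, and the p-values measure the spread between mice of a strain.

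Inbred strains differ in liver gene expression through variants in and near genes, through hormones and the immune haplotype, and through the makeup of resident cells. CBA/J and C3H/HeJ were both derived from crosses of Bagg albino and DBA stock and share large parts of their genomes and the same histocompatibility haplotype. CBA/J, C3H/HeJ and DBA/2J are thus related by descent, while 129S1/SvImJ and C57BL6/J are more distant.

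The tissue label was checked against defining markers. Alb, the gene of serum albumin, had a mean log2 signal of 16.41 in CBA/J mice, against 17.09 in 129S1/SvImJ, 15.93 in C57BL6/J, 16.42 in C3H/HeJ and 16.98 in DBA/2J, far above the mean array median of 6.59. Of 12 measured hepatocyte markers, 0 were called higher and 1 lower in CBA/J. Their mean log2 signal was 15.44 in CBA/J, against 16.01 in 129S1/SvImJ, 15.12 in C57BL6/J and 15.86 in DBA/2J. These gaps ran in both directions and exceeded the spread between mice (two-sided exact permutation test, adjusted p = 0.0019, 0.004 and 0.0019). In C3H/HeJ it was 15.53 (adjusted p = 0.23). Nnt, a mitochondrial proton pump that is disrupted in C57BL6/J, averaged 12.31 in CBA/J and was lowest in C57BL6/J, at 11.15. Hc, complement component C5, which DBA/2J lacks, averaged 14.16 in CBA/J and was lowest in DBA/2J, at 12.41. H2-Ea, a class II histocompatibility chain, averaged 6.60 in CBA/J and 6.44 in C3H/HeJ, near the array median, against 9.42 in DBA/2J. Its difference between CBA/J and the mean of the other strains was -0.32 (SE 0.29) and was not called. With signals so near the array median, H2-Ea could not serve as a check of the CBA/J and C3H/HeJ labels. The median log2 signal of the arrays averaged 6.52 in CBA/J, below 6.79 in 129S1/SvImJ and 6.78 in DBA/2J (two-sided exact permutation test, adjusted p = 0.0019 for both over 56 comparisons), and it was 6.46 in C57BL6/J (adjusted p = 0.28) and 6.41 in C3H/HeJ (adjusted p = 0.058). The 3' minus 5' difference of beta-actin, which reads how far the RNA and its labelling were intact, was 1.18 in CBA/J against 0.814 in C57BL6/J and 0.78 in DBA/2J (adjusted p = 0.0019 and 0.004). In 129S1/SvImJ it was 1.21 and in C3H/HeJ 0.886 (adjusted p = 0.88 and 0.067). The same difference of Gapdh was -0.404 in CBA/J and -0.316, -0.376, -0.31 and -0.286 in 129S1/SvImJ, C57BL6/J, C3H/HeJ and DBA/2J. None of these Gapdh contrasts passed the threshold (adjusted p from 0.08 to 0.51). No scan or extraction dates were used here.

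CBA/J livers differed from the mean of the 4 strains at 2891 of 12694 genes tested, or 22.8%, at an adjusted p under 0.05 in limma with Benjamini-Hochberg adjustment over all genes. Of these, 1305 genes (10.3% of those tested) were higher in CBA/J and 1586 (12.5%) were lower. Differences are CBA/J minus the mean of the 4 strain means on the log2 scale, with n = 8 mice per strain and the SE of the fit. Most were small, with a median absolute difference of 0.517 among the called genes, and 401 genes (3.16%) differed by 2-fold or more, 130 of them higher and 271 lower in CBA/J. The direction split depended on scaling: the higher calls made up 45.1% of calls as deposited and 58.7% when each array was centred on its 75th percentile, where 1667 genes were higher and 1171 lower. CBA/J had the highest of the 5 strain means for 971 of the 1305 higher genes and the lowest for 1293 of the 1586 lower genes. The same contrast for each other inbred strain against its 4 fellows gave, beside the 2891 called genes of CBA/J, 3226 for 129S1/SvImJ, 3442 for C57BL6/J, 3052 for C3H/HeJ and 3333 for DBA/2J.

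**Figure D1:**
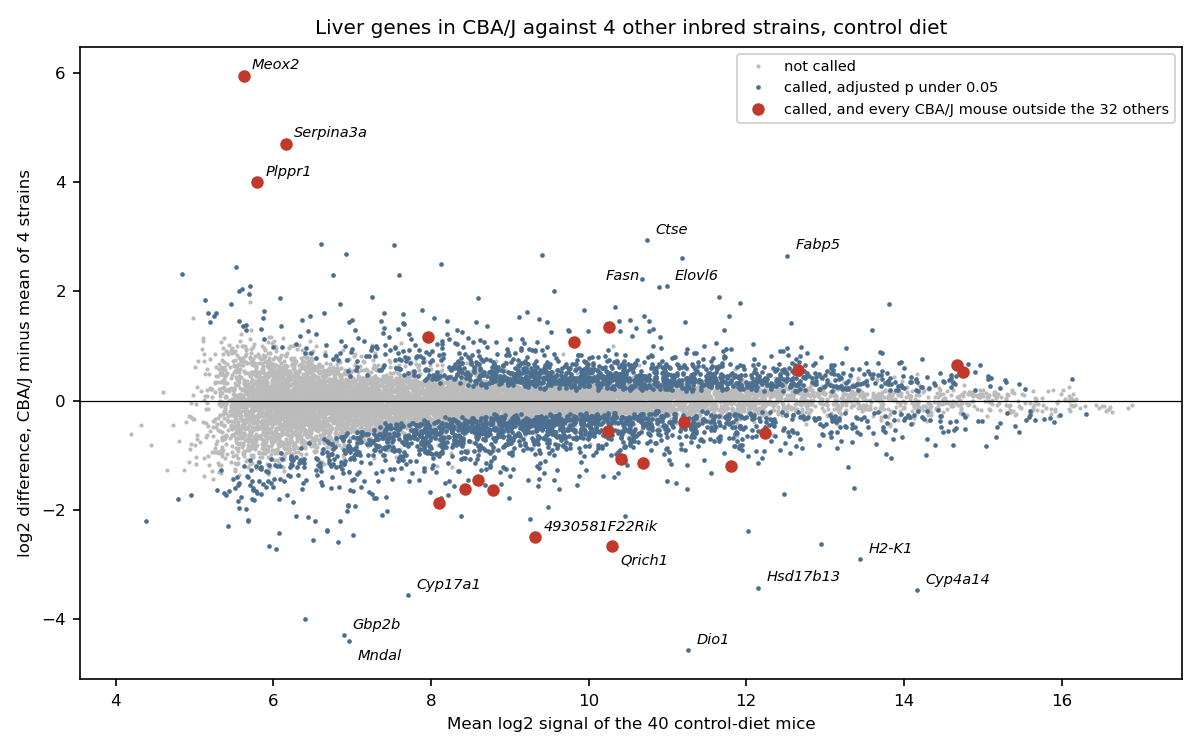
Difference between CBA/J and the mean of 4 strains on the control diet (vertical axis, log2) against the mean log2 signal of the 40 mice (horizontal axis), with 1 point per gene for 12694 genes. Grey points were not called, blue points had an adjusted p under 0.05, and the 21 red points had every CBA/J mouse outside the range of the 32 others; Meox2 at 5.95 and Dio1 at -4.57 mark the extremes.

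Against single strains, the fewest genes were called between CBA/J and C3H/HeJ, except with the array median as a covariate. The contrast with C3H/HeJ called 2050 genes (16.1%), while 3147 (24.8%) were called against 129S1/SvImJ, 3245 (25.6%) against C57BL6/J and 3095 (24.4%) against DBA/2J. These 4 contrasts share the CBA/J mice and are only set side by side. Among the 401 genes called with a 2-fold difference or more, the strain mean nearest to that of CBA/J was that of C3H/HeJ for 179 genes (44.6%), of DBA/2J for 82 (20.4%), of 129S1/SvImJ for 73 (18.2%) and of C57BL6/J for 67 (16.7%). Over all genes tested, C3H/HeJ was nearest for 29.4%. With that covariate the counts were 1119 against 129S1/SvImJ and 1151 against DBA/2J, the strains whose arrays had higher medians, 2280 against C3H/HeJ and 3305 against C57BL6/J, so that C3H/HeJ no longer had the lowest count.

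A total of 21 genes were called with every CBA/J mouse outside the range of all 32 others, 9 of them above (0.0709% of genes tested) and 12 below (0.0945%). The clearest gain was Meox2, a homeobox transcription factor known from muscle and vessel development. Its lowest, median and highest log2 signals were 9.88, 10.42 and 10.996 in CBA/J mice, against 1.87, 4.91 and 7.16 in the 32 others. The groups did not come near each other, and the difference was 5.95 ± 0.46 (limma adjusted p = 2.9e-13), with a second probe set at 6.01. Serpina3a, of the antichymotrypsin-like protease inhibitors, reached 9.36, 9.66 and 10.72 in CBA/J mice, against 2.25, 5.10 and 8.59 in the others. DBA/2J was the nearest strain for it, with a mean of 7.90, and the difference was 4.71 ± 0.44 (limma adjusted p = 5.5e-11). Plppr1, a membrane protein of the lipid phosphatase family known mainly from neurons, stood at 8.70, 8.97 and 9.56 in CBA/J mice and 0.83, 5.70 and 7.07 in the others, a difference of 4.004 ± 0.52 (limma adjusted p = 1.5e-07). For Meox2 and Plppr1 the means of all 4 other strains lay under the array median, which leaves the sizes of these differences uncertain.

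The 6 other genes above all 32 mice had smaller differences at higher levels. Dusp12, a dual-specificity protein phosphatase, had lowest, median and highest values of 10.50, 10.66 and 10.84 in CBA/J mice, against 8.54, 9.74 and 10.41 in the others, a difference of 1.07 ± 0.09 (limma adjusted p = 1.1e-12). The other strains were unequal for this gene, with means of 10.07 in C57BL6/J and 10.17 in DBA/2J above 9.004 in 129S1/SvImJ and 9.17 in C3H/HeJ. Limd2, a LIM domain protein, differed by 1.36 ± 0.16, and Abi3bp, an extracellular matrix protein, by 1.16 ± 0.14. Qdpr, the reductase that regenerates the tetrahydrobiopterin used by phenylalanine hydroxylase, spanned 14.93 to 15.56 in CBA/J mice and 13.99 to 14.92 in the others (0.66 ± 0.09). Nckap1, a subunit of the actin-regulating WAVE complex, differed by 0.56 ± 0.07, and Atp5pb, a stalk subunit of mitochondrial ATP synthase, by 0.53 ± 0.06; the highest limma adjusted p among these 6 genes was 2.5e-07, for Qdpr.

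Below all 32 mice, the most complete separation was at Qrich1, a glutamine-rich nuclear protein with a role in the response to misfolded proteins. Its log2 signals were 7.69, 8.23 and 8.55 in CBA/J mice (lowest, median and highest), against 10.19, 10.84 and 11.36 in the others, and the difference of -2.65 ± 0.11 (limma adjusted p = 7.1e-23) was 6.3-fold. The uncharacterised gene 4930581F22Rik followed, at 6.06, 7.50 and 7.94 in CBA/J mice and 9.16, 9.78 and 10.52 in the others (-2.49 ± 0.16, limma adjusted p = 6.6e-16). In both genes the 4 other strains had similar means, within 10.65 to 11.05 for Qrich1 and 9.66 to 10.14 for 4930581F22Rik. Nsun3, the methyltransferase of mitochondrial methionine tRNA, stood at 6.56, 7.12 and 7.82 in CBA/J mice and 8.13, 8.80 and 9.35 in the others (-1.61 ± 0.13), and its 2 other kept probe sets gave -1.64 and -1.39. Dnajc28, a DnaJ-domain protein, stood at 7.21, 7.42 and 7.67 in CBA/J mice and 8.31, 8.86 and 9.30 in the others (-1.45 ± 0.10), with a second probe set at -1.40. Gbp7, an interferon-inducible guanylate-binding protein, differed by -1.63 ± 0.18 and in its second probe set by -2.03. These 3 genes therefore had the same direction and a call in every kept probe set.

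The remaining separated genes that were lower in CBA/J cover several functions. Mocs1, which makes the first intermediate of the molybdenum cofactor, spanned 5.43 to 6.98 in CBA/J mice and 7.26 to 9.66 in the others (-1.88 ± 0.21), but its second probe set differed by -0.42 (limma adjusted p = 0.14). Ctdsp1, a phosphatase of the RNA polymerase tail, differed by -1.20 ± 0.10, Mtch1, of the mitochondrial outer membrane, by -1.14 ± 0.10, and Scly, which releases selenium from selenocysteine, by -1.06 ± 0.11. Igfbp7 (-0.59 ± 0.07), Gatad1 (-0.55 ± 0.09) and Mgat1 (-0.38 ± 0.07), an enzyme of N-glycan synthesis, separated the mice with a difference of 1.51-fold or less, and Igfbp7 was not called when its probe sets were averaged (-0.27, limma adjusted p = 0.238). Of the 14 separated genes that had another kept probe set, 7 had every other probe set called in the same direction, 0 had one called in the opposite direction and 7, namely Dusp12, Limd2, Atp5pb, Mocs1, Scly, Igfbp7 and Gatad1, had no other call. The second probe set of Limd2 gave 0.26 and that of Scly 0.02. Whether strain variants under the probes contribute to these signals was not tested. Since 21 is a count over the most extreme mice, it moved with single animals, to 43 without CBA/J mouse 1 and 34 without mouse 2, and it was 83 when C3H/HeJ was left out.

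**Figure D2:**
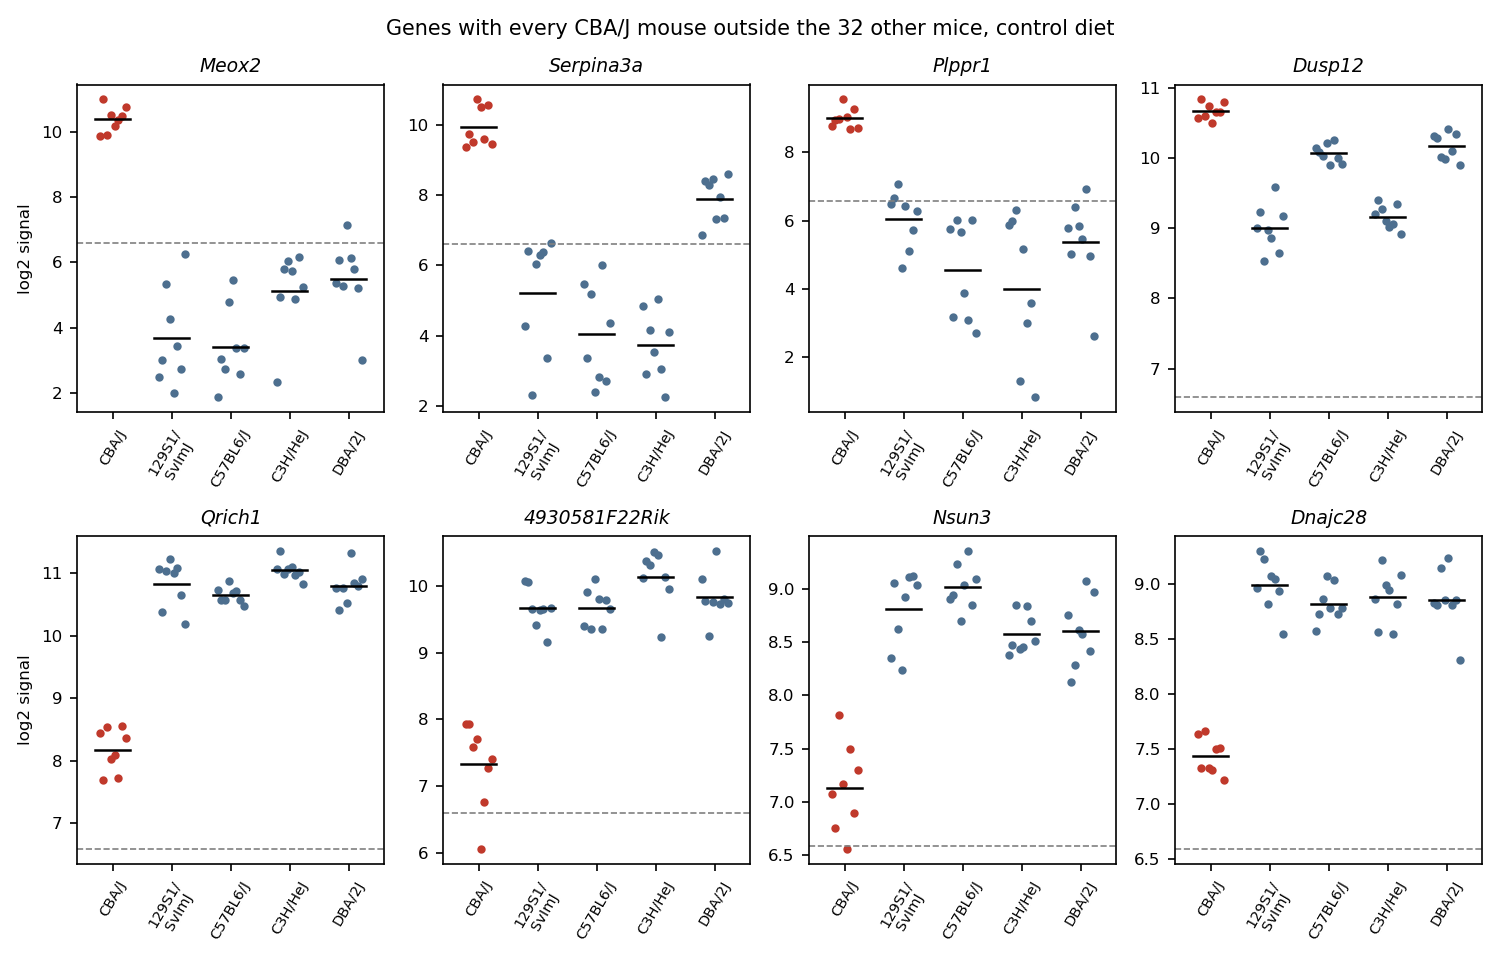
Log2 signal (vertical axis) of 8 genes in the 8 control-diet mice of each strain (horizontal axis, CBA/J in red), with 1 point per mouse, black bars for strain means and a dashed line at the mean array median of 6.59. Every CBA/J mouse lies above the 32 others in the upper row and below them in the lower row; Serpina3a in DBA/2J is the nearest approach among the 3 largest gains.

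The largest differences that did not separate every mouse were chosen after their values were seen, and many of them were shared with C3H/HeJ. Dio1, the hepatic deiodinase that converts thyroxine to active thyroid hormone and is known to be low in C3H mice, had a mean log2 signal of 7.60 in CBA/J and 8.61 in C3H/HeJ, against 13.17 in 129S1/SvImJ, 13.03 in C57BL6/J and 13.90 in DBA/2J. It was the lowest of all called differences, at -4.57 ± 0.24 (limma adjusted p = 2e-18), a 23.8-fold difference from the mean of the 4 strains. Cyp17a1, a steroid hydroxylase and lyase, averaged 4.86 in CBA/J and 4.98 in C3H/HeJ, both under the array median, against 11.46 in 129S1/SvImJ, 10.08 in C57BL6/J and 7.18 in DBA/2J (-3.56 ± 0.48). Rassf4, a Ras-association domain protein, averaged 3.19 in CBA/J and 3.98 in C3H/HeJ, against 7.67 in 129S1/SvImJ, 6.22 in C57BL6/J and 10.92 in DBA/2J (-4.01 ± 0.48). Its other kept probe sets were also called lower but gave -1.805 and -1.87. The means of CBA/J, C3H/HeJ and C57BL6/J lay under the array median, so the size of this difference is uncertain. Cyp46a1, a cholesterol hydroxylase best known from brain, went the other way, with 11.54 in CBA/J and 12.80 in C3H/HeJ, against 8.29 in C57BL6/J, 7.39 in DBA/2J and a still lower mean in 129S1/SvImJ (2.66 ± 0.29). Corin, a protease that activates atrial natriuretic peptide, and Crym, a thyroid hormone-binding protein, averaged 9.82 and 9.08 in CBA/J, near their means of 8.89 and 9.36 in C3H/HeJ and 8.55 and 8.74 in DBA/2J. In 129S1/SvImJ and C57BL6/J both lay under the array median, at 5.34 and 5.07 for Corin and 4.28 and 3.16 for Crym.

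Other large differences followed other strains. Ctse, the endosomal protease cathepsin E, averaged 13.10 in CBA/J and 13.56 in 129S1/SvImJ, against 7.58 in C57BL6/J, 7.84 in C3H/HeJ and 11.65 in DBA/2J (2.95 ± 0.20), but its second probe set gave 0.32 (limma adjusted p = 0.606). Aox3, a liver aldehyde oxidase that needs the molybdenum cofactor, averaged 10.11 in CBA/J and 10.43 in DBA/2J, against 12.96 to 13.56 in the other 3 strains (-2.39 ± 0.18). Gbp2b, a further guanylate-binding protein, was low in CBA/J relative to all 4 strains, with a mean of 3.46 against 6.81 to 8.29 (-4.29 ± 0.36, limma adjusted p = 3.7e-12). That CBA/J mean lay under the array median, so the size of the Gbp2b difference is uncertain. Mndal and Ifi202b, interferon-inducible genes of the PYHIN family, went in opposite directions, at -4.40 ± 0.51 and 2.30 ± 0.58. In both, DBA/2J was on the side of CBA/J, with means of 4.73 for Mndal and 9.59 for Ifi202b.

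Class I histocompatibility genes were read differently by different probe sets. H2-K1, a classical antigen-presenting chain, had signals of 10.85, 11.12 and 11.37 in CBA/J mice (lowest, median and highest) and a mean of 11.47 in C3H/HeJ, against means of 14.44 to 15.15 in the other 3 strains (-2.90 ± 0.10), and its 4 kept probe sets all gave a lower signal in CBA/J, with differences from -3.12 to -1.47. H2-D1 gave -2.63 ± 0.09 in its brightest probe set, while another of its 8 kept probe sets gave 4.85 (limma adjusted p = 3.6e-25). Hsd17b13, a lipid droplet enzyme of hepatocytes, showed the same contradiction, with -3.42 ± 0.11 in the brighter probe set, where CBA/J had a mean of 9.41, C3H/HeJ 9.58 and the other 3 strains 13.71 to 14.30, and 3.09 in the other (limma adjusted p = 2e-10). For H2-D1 and Hsd17b13 the direction of the transcript is therefore not settled by these arrays. Among all 717 genes with at least 2 called probe sets, 108 (15.1%) had calls in both directions. Genes of the H2, Cyp2c, Gst, Serpina3, Hspa1 and Cyp4a families have close copies, and signal shared between copies cannot be separated here.

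Genes of fat and sterol synthesis were higher in CBA/J. Of 28 measured genes for fatty acid and triglyceride synthesis, 13 were called higher and 2 lower, with a median difference of 0.288, against 10.3% higher, 12.5% lower and a median of -0.022 over all genes. Control-diet counts of every list below stand beside these same shares. Elovl6, which elongates palmitate, had log2 signals of 11.61, 12.61 and 13.63 in CBA/J mice and 9.26, 10.33 and 13.47 in the others (lowest, median and highest), a difference of 2.10 ± 0.23 (limma adjusted p = 8e-09). Fasn, the fatty acid synthase, had 11.09, 12.64 and 14.13 in CBA/J mice and 8.67, 10.47 and 14.23 in the others (2.09 ± 0.36, limma adjusted p = 3.5e-05). In both genes the groups overlapped, and the means of C3H/HeJ, 11.73 for Elovl6 and 11.99 for Fasn, lay between CBA/J and the other strains. The other higher members were Thrsp (1.77), Acaca (1.45), Acacb (1.44), Acly (0.94), Pnpla5, Me1, Acss2, Gpam, Elovl1, Scd1 and Elovl2, the last 7 between 0.26 and 0.81. Scd1, the abundant stearoyl-CoA desaturase, differed by 0.40 ± 0.14 in its brighter probe set (limma adjusted p = 0.037). Its second probe set gave 1.55 (limma adjusted p = 0.0002). The call of the brighter probe set was lost without any 1 of 5 CBA/J mice. The calls of Acacb, Pnpla5, Elovl1 and Elovl2 were also lost without single CBA/J mice. Elovl3 (-0.97 ± 0.14), another elongase, and Lpin2 (-0.96 ± 0.14), a phosphatidate phosphatase, were lower. The count of higher members was 8 without CBA/J mouse 4.

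In cholesterol synthesis and uptake, 11 of 21 measured genes were called higher and 2 lower in CBA/J, with a median difference of 0.381. Fdps, which makes farnesyl diphosphate for sterols and prenylation, had lowest, median and highest signals of 12.41, 12.96 and 14.12 in CBA/J mice, against 9.40, 11.32 and 14.23 in the others (1.90 ± 0.27, limma adjusted p = 1e-06). Nsdhl, a late enzyme of sterol synthesis, had 11.23, 11.90 and 12.60 in CBA/J mice and 9.35, 10.40 and 12.64 in the others (1.46 ± 0.20), and Stard4, a cholesterol transfer protein, differed by 0.69 ± 0.12. The further higher members were Pmvk, Msmo1, Idi1, Dhcr7, Fdft1, Sc5d, Tm7sf2 and Ebp, with differences between 0.28 and 0.94. The 2 lower members were regulators, Srebf2 (-0.93), the transcription factor of sterol synthesis, and Insig2 (-0.62), which holds that factor in the endoplasmic reticulum. The higher count was 7 without CBA/J mouse 4, 5 or 7 and 6 when all 96 arrays shared the estimate of spread, and the calls of Idi1, Dhcr7, Tm7sf2 and Ebp were lost without single CBA/J mice. Sc5d was not called when its probe sets were averaged (0.21, limma adjusted p = 0.192). Of the other probe sets of Stard4, one was called higher (0.52) and one was not called (-0.02, limma adjusted p = 0.946). The second probe set of Srebf2 was not called (-0.39, limma adjusted p = 0.338). Insig2 was not called with the array median as a covariate (-0.44, limma adjusted p = 0.104). Cyp7a1, which opens the route from cholesterol to bile acids, did not pass the threshold, with a difference of 0.41 ± 0.16 (limma adjusted p = 0.056), though it did with arrays centred on the 75th percentile (0.48, limma adjusted p = 0.0324).

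Fabp5, a fatty acid carrier, was among the 10 largest gains. Its signals were 13.77, 14.33 and 15.71 in CBA/J mice (lowest, median and highest) and 9.50, 12.03 and 15.08 in the others, a difference of 2.66 ± 0.33 (limma adjusted p = 7.6e-08), and its second probe set gave 2.85. Its mean was 14.65 in CBA/J, against 13.57 in C3H/HeJ, 12.89 in DBA/2J, 10.84 in C57BL6/J and 10.65 in 129S1/SvImJ. Genes of glucose handling were divided, with 6 of 23 called higher and 5 lower, or 3 lower without CBA/J mouse 2, 4, 7 or 8. Pklr, liver pyruvate kinase, differed by 1.17 ± 0.14, Slc2a2, the hepatocyte glucose transporter, by 0.76 ± 0.09, and Slc37a4, the glucose-6-phosphate transporter, by 0.60 ± 0.11. Pck1, the rate-limiting enzyme of gluconeogenesis, fell by 0.82 (SE 0.18, limma adjusted p = 0.00052), with 12.71 to 14.15 in CBA/J mice and 13.65 to 15.61 in the others.

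Fatty acid oxidation genes were lower in CBA/J. Of 30 measured genes of oxidation and ketogenesis, 0 were called higher and 14 lower, with a median difference of -0.204. Acot1, an acyl-CoA thioesterase, had lowest, median and highest signals of 8.48, 10.12 and 10.91 in CBA/J mice, against 8.51, 12.02 and 13.43 in the others (-1.62 ± 0.29, limma adjusted p = 5.9e-05). Ehhadh, of the peroxisomal pathway, had 12.58, 12.92 and 13.66 in CBA/J mice and 12.41, 13.99 and 15.82 in the others (-1.05 ± 0.17), and Hadha, of the mitochondrial trifunctional protein, differed by -0.50 ± 0.09. The other lower members were Fgf21 (-1.45), a fasting hormone of the liver, Pdk4 (-1.29), Crat (-0.82), Acot2, Acot4, Eci1, Hadhb, Cpt2, Acadl, Etfdh and Acadvl, the last 8 between -0.64 and -0.20. Cyp4a14, a fatty acid omega-hydroxylase, had a far larger difference, -3.47 ± 0.32 (limma adjusted p = 1.3e-10), with signals of 9.95 to 13.18 in CBA/J mice and 11.01 to 16.69 in the others. Ppara, the nuclear receptor that activates many of these genes, was read differently by its 3 kept probe sets. The brightest gave 0.37 ± 0.15 (limma adjusted p = 0.062), which was called higher with arrays centred on the 75th percentile (0.44, limma adjusted p = 0.0114), while the others gave -0.09 and -0.67, the last called lower (limma adjusted p = 7.1e-05). C3H/HeJ had the nearest means, with Acot1 at 9.95 in CBA/J and 10.26 in C3H/HeJ, and Ehhadh at 12.997 in CBA/J and 13.13 in C3H/HeJ. When probe sets of a gene were averaged, 9 oxidation genes were lower, with Acot4, Cpt2, Crat, Etfdh and Hadhb no longer called (Hadhb at -0.01), and the calls of Cpt2, Acadl, Etfdh and Acadvl were lost without single CBA/J mice.

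**Figure D3:**
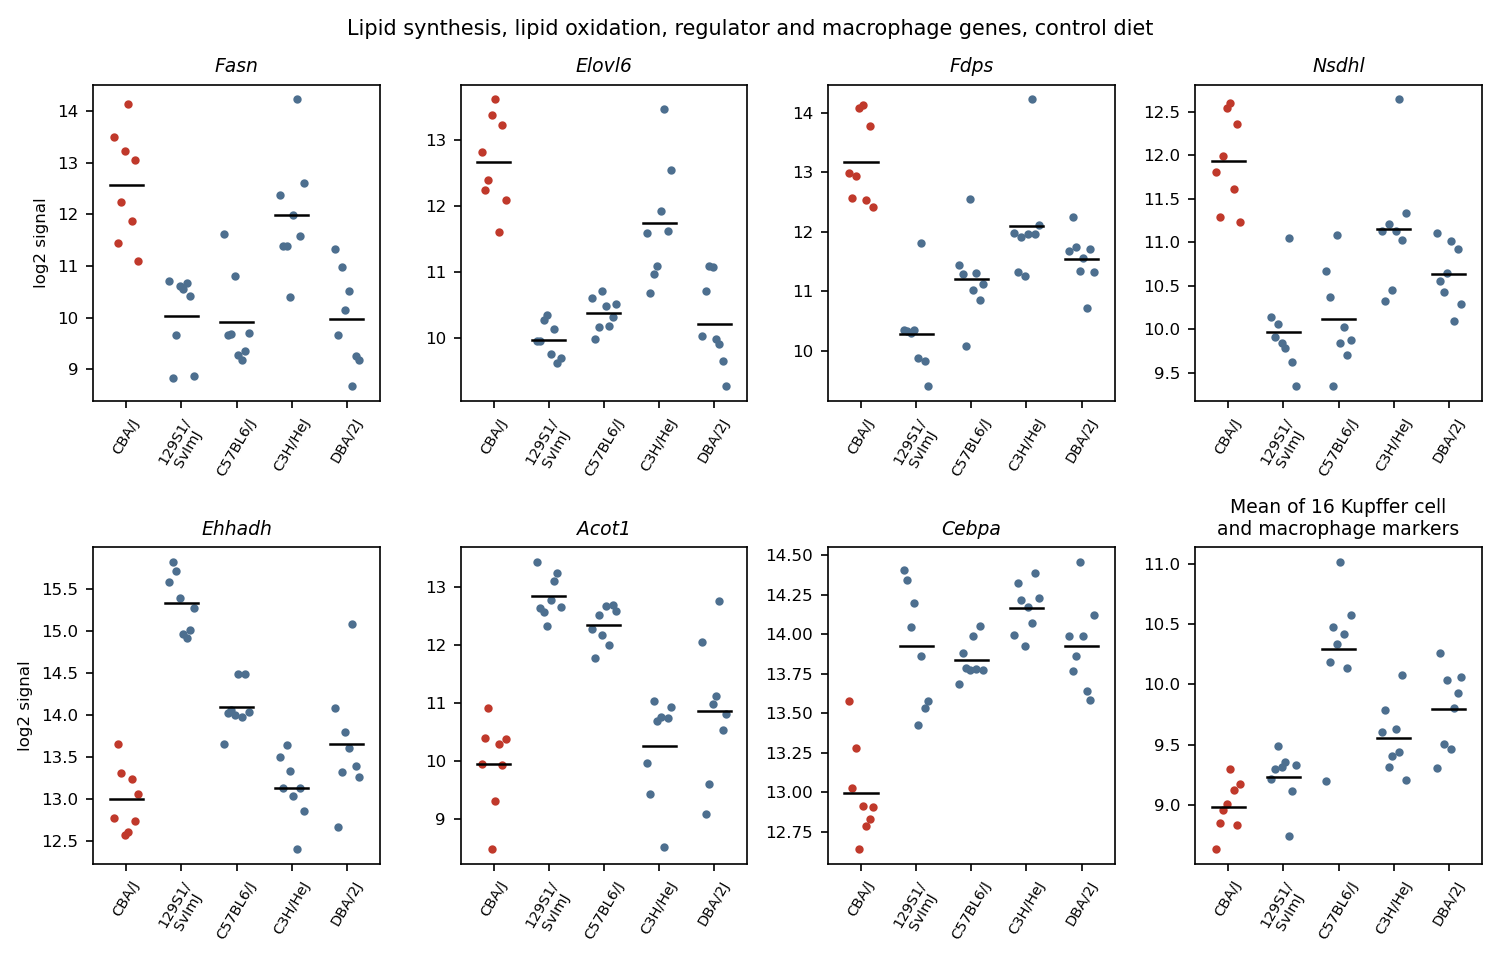
Log2 signal (vertical axis) of 7 genes, and the mean over 16 Kupffer cell and macrophage markers, in the 8 control-diet mice of each strain (horizontal axis, CBA/J in red), with 1 point per mouse and black bars for strain means. Fasn, Elovl6, Fdps and Nsdhl are highest on average in CBA/J with C3H/HeJ next, Ehhadh and Acot1 are lowest in CBA/J with C3H/HeJ next, and Cebpa is lower in CBA/J than in each other strain.

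Oxidative phosphorylation genes were modestly higher in CBA/J. Of 35 measured members, 12 were called higher and 1 lower, with a median difference of 0.175. Atp5o, a stalk subunit of ATP synthase, had signals of 13.49, 13.83 and 13.91 in CBA/J mice (lowest, median and highest) and 12.68, 13.28 and 13.66 in the others (0.57 ± 0.07, limma adjusted p = 1.1e-07). Ndufb8, of respiratory complex I, differed by 0.50 ± 0.09 (0.08 and not called in its second probe set), while Uqcrc1, a core protein of complex III, fell by 0.48 (SE 0.06). In the brightest probe set of each gene, none of these list members differed by as much as 1.5-fold. The second probe set of Atp5o, however, gave 1.33 (limma adjusted p = 1.2e-06). When all 96 arrays shared the estimate of spread, 4 members were higher.

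Several regulators of hepatocyte genes were lower in CBA/J. Of 20 measured liver transcription factors, 6 were called lower and 1, Foxa1 (0.93), higher, with a median of -0.00986. Cebpa, a factor that maintains hepatocyte metabolism, had lowest, median and highest signals of 12.64, 12.91 and 13.58 in CBA/J mice, against 13.42, 13.99 and 14.46 in the others (-0.97 ± 0.10, limma adjusted p = 2.4e-09). Foxa3 differed by -1.18 ± 0.13, Cebpd by -1.14, Cebpb by -0.93 and Hnf4a by -0.58 ± 0.09, and all 4 kept probe sets of Hnf4a were called lower. Pparg, the adipogenic nuclear receptor, averaged 4.47 in CBA/J and 3.89 in C3H/HeJ, both under the array median, against 7.37 to 8.84 in the other strains (-2.55 ± 0.40). Nr1i3, the xenobiotic receptor CAR, differed by -0.91 ± 0.11. Albumin itself did not differ beyond the spread between mice (-0.19 ± 0.11, limma adjusted p = 0.254).

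The list of glucocorticoid receptor targets and metallothioneins had calls in 1 direction, though most members were not called. Of 18 measured genes, 0 were called higher and 7 lower in CBA/J, with a median of -0.693, and the lower count was 7 or 8 without any 1 CBA/J mouse. Cdkn1a, a cell-cycle inhibitor that stress hormones also induce, had signals of 4.21, 5.28 and 6.57 in CBA/J mice (lowest, median and highest) and 3.60, 7.16 and 10.41 in the others, a difference of -1.92 ± 0.33 (limma adjusted p = 2.9e-05). Every CBA/J value of Cdkn1a lay under the mean array median of 6.59, so the size of its difference is uncertain. The other called members were Per1 (-1.31), Igfbp1 (-1.02), Fkbp5 (-0.84), Errfi1 (-0.83), Klf9 (-0.81 ± 0.14) and Angptl4 (-0.75 ± 0.12), an inhibitor of lipoprotein lipase. Sgk1, Tsc22d3, Nr3c1, Mt1, Mt2, Slc38a2, Lcn2, Zbtb16, Dusp1, Tat and Gadd45g were not called. 129S1/SvImJ had the highest strain mean for Cdkn1a, Klf9 and Angptl4, at 9.20, 13.97 and 12.72. Per1 is also a clock gene, and in the list of 17 clock genes 4 were called higher, namely Cry1, Dbp, Per2 and Per3, and 4 lower. The call of Per2 was lost without single CBA/J mice.

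In the growth hormone and IGF1 axis, 2 of 15 measured genes were called higher and 5 lower. Igf1, the ligand, was higher in CBA/J, by 0.34 ± 0.08 (limma adjusted p = 0.00065), and so was the growth hormone receptor gene Ghr (0.34), whose call was lost without CBA/J mouse 2 and when its probe sets were averaged (0.17, limma adjusted p = 0.196). Neither was called with all 96 arrays in the fit (limma adjusted p = 0.274 for Igf1 and 0.124 for Ghr). Igfbp2, a binding protein secreted by the liver, had signals of 13.23, 13.43 and 13.88 in CBA/J mice (lowest, median and highest) and 13.75, 14.40 and 15.60 in the others (-0.996 ± 0.12, limma adjusted p = 2e-08). Among the lower members were also Igfbp3 (-1.37 ± 0.20), Igfbp4 (-0.66 ± 0.10) and Igfbp1, named above.

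Members of the Cyp2c and glutathione transferase families were called higher. Of 9 measured Cyp2c enzymes, 5 were called higher and 0 lower (median 0.588), among them Cyp2c70 (0.87 ± 0.16), Cyp2c37 (0.82 ± 0.14) and Cyp2c68 (0.35 ± 0.08). The strain that was low differed between members, with Cyp2c37 at 8.60 in 129S1/SvImJ and Cyp2c70 at 11.69 in C57BL6/J, and 3 Cyp2c enzymes were higher when all 96 arrays shared the estimate of spread. Of 21 glutathione transferases, 8 were called higher, 0 lower and 13 not called (median 0.142). Mgst3, a membrane-bound member, had a median signal of 11.76 in CBA/J mice and 10.11 in the others, with lowest values of 11.20 in CBA/J mice and 9.17 in the others (1.48 ± 0.13, limma adjusted p = 2.7e-11), and Gsta4 (0.55 ± 0.09) and Gstp3 (0.74 ± 0.15) were also higher, the calls of Gsta4 and Cyp2c68 being lost with all 96 arrays in the fit (limma adjusted p = 0.131 and 0.217). Among the other families, 2 of 12 UDP-glucuronosyltransferases and related genes were called higher and 3 lower, 1 of 9 Cyp4 omega-hydroxylases higher and 3 lower, and 1 of 9 flavin monooxygenases and aldehyde oxidases higher and 3 lower. Of 9 sulfotransferases 1 was higher and 1 lower, of 11 carboxylesterases 2 were higher and 0 lower, and of 18 Cyp2a, 2b, 2d, 2e, 2f and 2j enzymes 6 were higher and 1 lower. Of 4 Cyp3a enzymes, 0 were called higher and 1 lower. Over all genes, 10.3% were called higher and 12.5% lower. Sulfotransferases (22.2% called), carboxylesterases (18.2%) and Cyp3a enzymes (25%) were near the 22.8% called over all genes. Cyp3a13 was lower (-0.83 ± 0.11), whereas the abundant Cyp3a11 (0.12 ± 0.12, limma adjusted p = 0.54) and Cyp2e1 (-0.11 ± 0.09, limma adjusted p = 0.425) did not pass the threshold, nor did Nnmt (-0.59 ± 0.41, limma adjusted p = 0.339).

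Genes with known sex bias in liver did not move one way. Of 21 measured male-biased genes, 6 were called higher and 2 lower in CBA/J (median 0.339). Hsd3b5, a male-specific steroid reductase, had signals of 14.04, 14.70 and 15.04 in CBA/J mice (lowest, median and highest) and 11.23, 13.46 and 14.64 in the others (1.29 ± 0.21, limma adjusted p = 1.7e-05). Serpina12, an insulin-sensitising serpin, differed by 1.56 ± 0.19, with a mean of 7.91 in 129S1/SvImJ, though its second probe set gave 0.53 (limma adjusted p = 0.534), and Cyp4a12a did not pass the threshold (0.38 ± 0.32, limma adjusted p = 0.439). Of 12 female-biased genes, Cyp2b9 was higher (2.499 ± 0.65) and Cyp17a1 and Cyp4a14 were lower. Among 19 serpins 6 were called higher and 2 lower, the higher ones including Serpina3a and Serpina11 (0.98 ± 0.08).

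Over the 31 measured genes of the urea cycle and amino acid breakdown, 3 were called higher and 8 lower (median -0.133), and 5 were lower with arrays centred on the 75th percentile or with all 96 arrays in the fit. Csad, which makes hypotaurine for taurine synthesis, had signals of 8.35, 8.68 and 9.40 in CBA/J mice (lowest, median and highest) and 8.74, 10.98 and 12.71 in the others (-2.10 ± 0.19, limma adjusted p = 2.3e-11), with C3H/HeJ next at a mean of 9.42. Cbs (-0.91 ± 0.16), Cth (-0.50) and Cdo1 (-0.57), which carry homocysteine sulfur into cysteine and on to cysteine sulfinate, were lower too, and the other lower members were Oat (-0.70), Bckdha (-0.28), Aass (-0.27), whose call was lost without single CBA/J mice, and Glud1 (-0.25). Bckdha, Aass and Glud1 were not called with arrays centred on the 75th percentile or with all 96 arrays in the fit. Glud1 gave 0.07 in its second probe set, and its average was not called (-0.09, limma adjusted p = 0.341). The inducible heat shock genes Hspa1a (2.87 ± 0.42) and Hspa1b (2.60 ± 0.41) were higher, with Hspa1b at 10.96 to 14.68 in CBA/J mice and 6.91 to 13.15 in the others. Over the list of 18 heat shock genes, 2 were called higher and 3 lower, beside 10.3% and 12.5% over all genes.

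Markers of resident macrophages were low in CBA/J livers. Of 16 measured Kupffer cell and macrophage markers, 0 were called higher and 10 lower, with a median difference of -0.634. Their mean log2 signal averaged 8.99 in CBA/J, against 9.23 in 129S1/SvImJ, 10.3 in C57BL6/J, 9.56 in C3H/HeJ and 9.80 in DBA/2J. The gap was larger than the spread between mice for C57BL6/J, C3H/HeJ and DBA/2J (two-sided exact permutation, adjusted p = 0.0019 for each) and not for 129S1/SvImJ (adjusted p = 0.082). Summed over the list, the linear signal ran from 15550 to 26710 in CBA/J mice and from 20100 to 62430 in the 32 others. Clec4f, the Kupffer cell lectin, had lowest, median and highest signals of 9.68, 10.21 and 10.80 in CBA/J mice, against 10.09, 11.19 and 12.59 in the others (-0.95 ± 0.16, limma adjusted p = 1.6e-05). Cd163, the haemoglobin scavenger receptor, differed by -1.24 ± 0.22 and C1qc, a complement chain that macrophages make, by -1.18 ± 0.15. Folr2 (-1.60), Marco (-1.55), C1qb, Cd5l, C1qa, Lyz2 and Adgre1 were also called lower, with the calls of Folr2, Marco, Lyz2 and Adgre1 lost without single CBA/J mice, while Csf1r, Vsig4, Timd4, Cd68, Spic and Slc40a1 did not pass the threshold. Csf1r, the receptor for macrophage growth factor, gave -0.34 ± 0.13 in its brightest probe set, but its 2 other probe sets (-0.61 and -0.85) and their average with it (-0.60, limma adjusted p = 0.00059) were called lower. The 2 other probe sets of C1qb gave -0.16 and -0.06 and its average was not called (limma adjusted p = 0.0738), and with all 96 arrays in the fit C1qa, Lyz2 and Marco were not called (limma adjusted p = 0.108, 0.0537 and 0.0817). Marco averaged 5.55 over the 40 control-diet mice, under the array median, so the size of its difference is uncertain. In bulk liver, fewer cells of a type and less RNA per cell cannot be told apart.

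Class II histocompatibility genes were also lower in CBA/J. Of 7 measured members, 0 were called higher and 5 lower (median -1.01). H2-Aa had signals of 9.30, 9.87 and 10.29 in CBA/J mice (lowest, median and highest) and 9.16, 11.36 and 12.88 in the others (-1.47 ± 0.20, limma adjusted p = 3.6e-07). H2-Ab1 differed by -1.32 ± 0.15, H2-Eb1 by -1.27 ± 0.17 and Cd74, the invariant chain, which lies outside the H2 complex, by -1.01. In H2-Aa, H2-Ab1 and H2-Eb1 the nearest mean was that of C3H/HeJ, at 10.04, 8.89 and 9.23. Of 35 complement and coagulation genes, 6 were called higher and 9 lower, and the 9 include the macrophage markers C1qa, C1qb and C1qc. With all 96 arrays in the fit, 2 were higher and 4 lower. The parts of the macrophage marker levels, of the haplotype shared with C3H/HeJ and of strain variants under the probes in these differences were not tested.

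Interferon-stimulated genes were divided, with 5 of 31 called higher and 10 lower (median -0.244). Mx2 (-1.76 ± 0.39) and Zbp1 (-1.23 ± 0.29) were lower, with Mx2 under the array median in CBA/J. Xaf1 was higher (0.88 ± 0.19) in its brightest probe set but its other probe set was called lower (-1.72), and the average of both gave -0.42 (limma adjusted p = 0.128). Markers of other cell types differed in part. Of 15 endothelial markers 1 was higher and 4 lower (2 lower without CBA/J mouse 2, and 0 higher without mouse 1), of 15 stellate cell and fibroblast markers 1 was higher and 0 lower, and of 7 monocyte and neutrophil markers 0 were higher and 1 lower. Of 5 cholangiocyte markers, 0 were called higher and 3 lower, namely Sox9 (-1.47), a duct transcription factor, the anion exchanger gene Slc4a2 (-0.85) and the water channel gene Aqp1 (-0.39). Their mean log2 signal was 7.34 in CBA/J, against 7.96 in 129S1/SvImJ, 7.85 in C3H/HeJ and 7.88 in DBA/2J (two-sided exact permutation, adjusted p = 0.0044, 0.011 and 0.035) and 7.62 in C57BL6/J (adjusted p = 0.14). Sox9 and Krt19, another of the 5, lay under the array median in all 5 strains. The call of Sox9 was lost with the array median as a covariate (-1.10, limma adjusted p = 0.0695). That of Aqp1 was lost with all 96 arrays in the fit (limma adjusted p = 0.0794). Of 6 adipocyte markers 0 were higher and 2, Pparg and Cidec, lower. Their mean was 8.36 in CBA/J, against 9.12 in 129S1/SvImJ, 9.59 in C57BL6/J and 9.18 in DBA/2J (exact permutation, adjusted p = 0.004, 0.0019 and 0.0081) and 8.39 in C3H/HeJ (adjusted p = 0.98). Of 5 erythroid markers 1 was higher and 1 lower, with a mean of 8.43 in CBA/J against 9.01 in DBA/2J (exact permutation, adjusted p = 0.011). Of 6 T and NK cell markers, 9 B and plasma cell markers and 6 pancreatic acinar markers 0 were called. Some list means were still lower in CBA/J (two-sided exact permutation). For T and NK cells this held against C57BL6/J (adjusted p = 0.011), and for B and plasma cells against 129S1/SvImJ and C57BL6/J (0.01 and 0.035). Monocyte and neutrophil means were lower than in C57BL6/J, C3H/HeJ and DBA/2J (0.012, 0.048 and 0.01), and endothelial means than in C3H/HeJ (0.0026). Other contrasts of these lists had adjusted p of 0.058 or more. Among the T and NK cell markers, Il2rb, Cd3g, Xcl1 and Cd8a lay under the array median in all 5 strains. The part of these marker levels in the other differences was not tested.

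**Figure D4:**
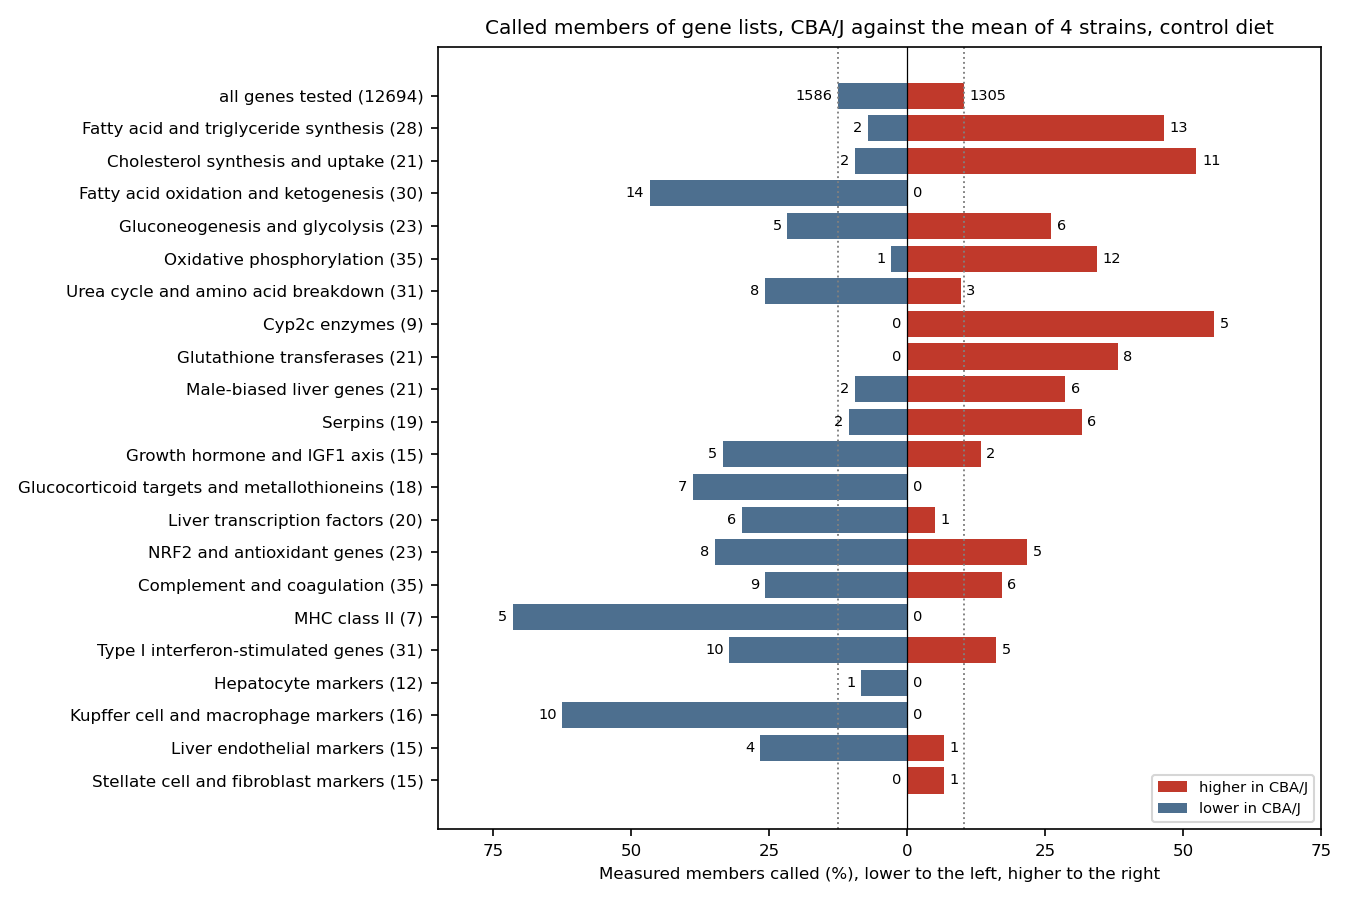
Share of measured members called higher (red, to the right) and lower (blue, to the left) in CBA/J for 21 gene lists, with counts at the bar ends, list sizes in brackets and dotted lines at the shares over all 12694 genes (10.3% and 12.5%). Sterol and fatty acid synthesis extend to the right, and MHC class II, Kupffer cell markers and fatty acid oxidation extend to the left.

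The contrast was repeated in mice on the restricted diet, whose arrays did not enter the control-diet fit. There, CBA/J differed from the mean of the 4 strains at 3432 higher (27%) and 2698 lower genes (21.3%). The CBA/J restricted arrays stood apart in scale, with medians of 6.99 to 7.50 against 6.42 to 6.63 in CBA/J control mice, and all genes together had a median restricted difference of 0.131. The 3' minus 5' difference of Gapdh averaged -0.0324 in CBA/J restricted mice and -0.404 in CBA/J control mice, and hepatocyte markers averaged 16.9 in CBA/J restricted mice and 15.44 in CBA/J control mice, with 11 of 12 called higher and 1 lower against the restricted groups of the 4 strains. The part of these shifts in the repeat was not tested. Of the 2891 control-diet calls, 986 (34.1%) were called in the same direction, which is 16.1% of the restricted-diet calls, and 528 were called in the opposite direction. The sign was the same for 59.9% of the control-diet calls and 52.1% of all genes. Among the 401 calls of 2-fold or more, 187 (46.6%) were called in the same direction. Without DBA/2J restricted mouse 6, whose array median was 8.29, the count of 986 became 1103.

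Of the 21 separated genes, 11 were called in the same direction on the restricted diet and 15 had the same sign. For only 2 of them did every CBA/J mouse again lie outside all others on that diet, in the same direction. Qrich1 differed there by -2.54 ± 0.15 (limma adjusted p = 1.6e-17), beside -2.65 ± 0.11 on the control diet. Meox2 differed by 4.32 ± 0.50, Serpina3a by 3.62 ± 0.47 and Plppr1 by 3.56 ± 0.60, and Nsun3, Dnajc28, 4930581F22Rik, Gbp7, Scly, Dusp12 and Atp5pb were the other genes called again. In contrast, Qdpr was -0.47 ± 0.12 and Mgat1 0.77 ± 0.09 on the restricted diet, both called in the direction opposite to the control diet. Dio1 (-4.55 ± 0.37), Cyp4a14 (-3.16 ± 0.31) and Cyp17a1 (-4.07 ± 0.52) were again lower in CBA/J. Beside 27% higher and 21.3% lower over all genes, 11 of 28 fatty acid and triglyceride synthesis genes were higher and 2 lower on the restricted diet. For cholesterol genes, 6 of 21 were higher and 3 lower. Of 18 glucocorticoid targets and metallothioneins, 0 were higher and 8 lower. Oxidation genes went the other way, with 15 of 30 higher and 6 lower, the Kupffer cell list had 1 higher and 5 lower, and the class II list 2 higher and 1 lower. Cebpa, at -0.06 ± 0.18 (limma adjusted p = 0.797), was not called on the restricted diet.

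**Figure D5:**
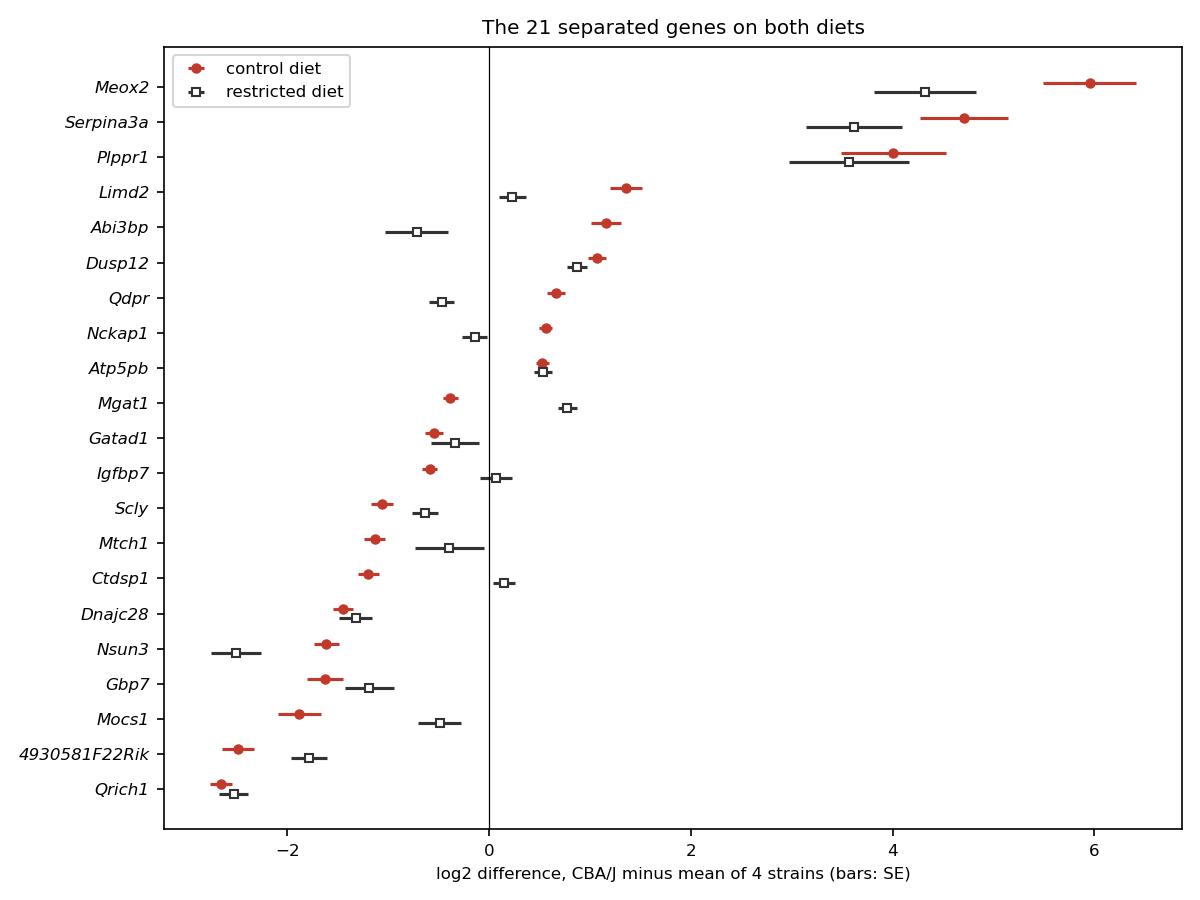
Difference between CBA/J and the mean of 4 strains (horizontal axis, log2, bars for SE) for the 21 separated genes (vertical axis) on the control diet (red circles) and, in other mice, on the restricted diet (open squares). Meox2, Serpina3a, Plppr1, Dusp12, Atp5pb, Scly, Dnajc28, Nsun3, Gbp7, 4930581F22Rik and Qrich1 were called in the same direction on both diets, while Qdpr and Mgat1 were called in opposite directions.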

How the data were processed

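Liver RNA of 96 male mice was measured on single-colour arrays, 1 mouse per array, and groups were taken from the labels. Per the labels, the authors extracted total RNA with Trizol and prepared biotinylated cRNA, and the deposited values are MAS5 signals per the submitters' processing notes, an intensity on a linear scale. Their trimmed mean was 500 on each array, with 2% left out at each end. The MAS5 version, its settings and its detection calls were not stated.

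Signals were turned into log2 values. Of 45101 probe sets, 64 controls were left out, and a probe set was kept when it reached the array median in at least 8 of the 40 control-diet arrays, which left 27116. Of all probe sets, 34958 carried 1 gene symbol in the platform annotation, 932 carried several and 9211 none; gene identifiers linked 34754 of those with 1 symbol to the RefSeq table of assembly GRCm38.p6. Each of 12694 genes was represented by its kept probe set of highest mean. A mean per group was fitted to the 40 control-diet arrays with limma 3.58.1 (R 4.3.3; lmFit, then eBayes with trend and robust variances), and CBA/J minus the mean of 4 strains was tested with Benjamini-Hochberg adjustment; genes with an adjusted p below 0.05 are termed called. The restricted diet was fitted apart on the same probe sets. Array measures were compared by two-sided exact permutation. The number of arrays limits the precision. Labels do not say whether mice shared a litter.

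The comparison and the gene lists were chosen with earlier results of these data known. Named genes were the 12 largest differences each way among separated genes, the 3 called members of lowest p in every list, a set always named, and strain checks; 85 more, the 10 largest differences each way and further list members, were added after values were seen. Fits were tested on simulated data. Alternatives covered normalization, offset, filter, probe set choice, variance model, array weights, covariates and left-out samples. Figures used Python 3.11.15 and matplotlib 3.10.9.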

Additional observations from a re-analysis of the deposited data

Results flagged for a closer look

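Single mice stood far from the other 7 of their group in 27 of 204 groups examined, which were the 8 CBA/J control mice for each of 179 genes named in the text and 5 array measures in each of 5 strains. The gap to the nearest mouse, as a share of the whole range, exceeded Dixon's critical value for 8 samples, which chance alone passes in about 1 in 20 groups. CBA/J control mouse 2 was the outlying mouse for 14 genes. Its log2 signal was low for Atp5o (13.49, nearest other mouse 13.79), Cd68 (6.12, 7.29), Cd74 (8.49, 9.51), Crym (7.73, 8.93), Cyp2c68 (13.66, 14.11), Cyp4a12a (11.79, 13.35), Ebp (12.88, 13.50), Igf1 (14.29, 14.74), Nnt (11.32, 12.04), Pck1 (12.71, 13.55) and Slc37a4 (12.93, 13.46). It was also low for Cebpb (10.09, 11.36) and Per2 (7.70, 9.33), and high for Ndufb8 (14.08, 13.67).

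Mouse 1 was low for Ifi202b (7.32, 8.29) and Lyz2 (9.37, 10.34) and high for Mx2 (6.26, 4.28), Keap1 (10.09, 9.86) and Txnrd1 (11.53, 11.13). Mouse 3 was low for Spic (4.22, 5.99), mouse 4 was low for Mocs1 (5.43, 6.51) and mouse 6 was high for Xcl1 (6.77, 4.73). Mouse 8 was low for Cidec (2.333, 5.792) and Dbp (12.26, 13.07) and high for Uqcrc1 (13.47, 13.20). Among the array measures, C3H/HeJ control mouse 8 had a 3' minus 5' difference of 0.251 for Gapdh, with the nearest other mouse at -0.337, and 1.56 for beta-actin, with the nearest at 1.03.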

How the results depend on the processing

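With a minimum of 1.5-fold in the test, 55 genes were higher and 91 lower in CBA/J, 53 control-diet calls recurred on the restricted diet, and 403, 406, 93 and 255 genes were called against 129S1/SvImJ, C57BL6/J, C3H/HeJ and DBA/2J. With all 96 arrays in the fit, 735 genes were higher and 980 lower, and the counts against those 4 strains were 1989, 2137, 1044 and 1872. The array median as a covariate gave 1119 against 129S1/SvImJ and 1151 against DBA/2J, and array weights gave 3242 against C3H/HeJ. Without C3H/HeJ, 83 genes separated the mice. Leaving out 1 CBA/J control mouse at a time gave 1072 to 1279 higher genes, 1336 to 1583 lower genes, 21 to 43 separated genes and 840 to 966 calls recurring on the restricted diet. Replicate numbers are shared between groups, but only 20 of 80 same-numbered pairs had deviations correlated above 0.1 (median 0.0207), and 14 of 40 arrays matched best with their own number. With the replicate number as a block, 1492 genes were higher, 1761 lower and 21 separated, 1081 calls recurred, and 3531, 3655, 2492 and 3513 genes were called against the 4 strains in the order above. Averaging probe sets turned the sign of Etfdh (0.0679), Xaf1 (-0.42) and Cdh5 (0.0907), an endothelial marker not named elsewhere, and the cause was not tested. An alternative chosen after seeing the data left out C3H/HeJ control mouse 8 and DBA/2J control mouse 4, whose Gapdh 3' minus 5' differences were above 0 (0.251 and 0.128), and gave 12 higher fatty acid synthesis genes, 11 higher cholesterol genes and 13 lower oxidation genes. For 179 genes named in the text, 3800 of 4107 values under alternatives kept their direction and side of the threshold, 290 lost a call and 15 gained one. Genes under the array median may lie near the arrays' floor, which limits the size of their differences.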

Other observations

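Other gene groups gave calls in both directions. Of 24 measured bile and organic ion transporters, 6 were called higher and 3 lower in CBA/J, with a median difference of 0.13. Abcc2, the canalicular pump for conjugated bilirubin, averaged 12.005 in CBA/J, against 10.21 in 129S1/SvImJ, 11.87 in C57BL6/J, 11.67 in C3H/HeJ and 10.46 in DBA/2J (0.95 ± 0.17, limma adjusted p = 4e-05). Abcc6, whose loss causes ectopic calcification, differed by 1.28 ± 0.28 and Abcg2, a drug and urate pump, by 0.53 ± 0.12. Of 23 antioxidant and NRF2-related genes, 5 were called higher and 8 lower (median -0.156), or 1 higher and 5 lower with all 96 arrays in the fit. Keap1, the inhibitor of NRF2, differed by -0.42 ± 0.08, Txnrd1, cytosolic thioredoxin reductase, by -0.43 ± 0.09 (not called in its 2 other probe sets), and Ephx1, microsomal epoxide hydrolase, by -0.74 ± 0.13.

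Of 23 haem and iron genes, 4 were called higher and 6 lower, or 2 lower with all 96 arrays in the fit. Alad, an early enzyme of haem synthesis, averaged 14.34 in CBA/J and was lowest in C57BL6/J, at 12.71 (0.44 ± 0.09).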
